A study of Mus musculus with 4 samples.

Results

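The genes described here are the annotated mouse copies of the small nuclear RNAs U4, U5, U6, U7, U11 and U12 and of the small nucleolar RNA U3, read against the peaks of YAP ChIP-Seq in undifferentiated E14Tg2a mouse embryonic stem cells (ESCs). All genes with one of these 7 names in the GENCODE vM1 annotation of the mm9 genome were taken, 1163 of 37273 annotated genes on assembled chromosomes. A copy was counted as having a peak when a peak of either replicate overlapped it by at least 1 bp, which was so for 18 of the 1163 copies. The genes were taken by name, with earlier results of these peaks known, including those at a U5 copy on chromosome 9 and a U3 copy on chromosome 11.

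ChIP-Seq measures which stretches of chromatin are recovered with an antibody, here a rabbit polyclonal antibody against YAP, by sequencing the DNA that comes down with it. Chromatin was taken in 2 independent experiments from cells of the E14Tg2a line, pluripotent and with no treatment or genetic change named, and the series holds 2 YAP immunoprecipitates and 2 input libraries. By the study's account YAP is clearly nuclear in a minority of these cells, so the peaks are an average over a mixed population. The peak lists of the 2 immunoprecipitates are described here, and no peak list of the 2 input libraries was analysed, so no background measured in the same way stands beside the values. Replicate 1 held 447 peaks from 22696949 tags and replicate 2 held 154 peaks from 14965024, a tag being 1 mapped position of a read and these numbers those that the peak lists call unique. Reads with several positions in the genome were kept, each position having a smaller weight the more of them a read had, and whether the tag numbers of the peaks carry that weighting is not known, so tags at repeated genes are not all reads of 1 place. No condition was compared with another, and replicate error can be read only from how far the 2 replicates differ.

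U4, U5 and U6 are RNA parts of the spliceosome, which removes introns from pre-mRNA, while U11 and U12 belong to a second spliceosome that removes a rarer class of introns. U7 directs the cutting of the 3′ ends of replication-dependent histone mRNAs, and U3 guides early cuts of the ribosomal RNA precursor in the nucleolus. In vertebrates these genes have their own kind of promoter, with an octamer in a distal element and a proximal sequence element bound by the factor SNAPc. RNA polymerase II transcribes all of them but U6, whose promoter also has a TATA box and which RNA polymerase III transcribes. Genomes carry many further copies of these RNAs, most of which are taken to be retroposed pseudogenes without that promoter. YAP does not bind DNA by itself and is known chiefly as a coactivator of the TEAD transcription factors.

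The 75 bases before the 5′ end of the copies with a peak are shown because this stretch holds the proximal promoter. They were read 5′ to 3′ on the strand of the gene from the NCBIM37 assembly, which is mm9. Capitals mark the word CACC where it lies wholly between -75 and -46, and the word TATA where it lies wholly between -40 and -15. Positions are counted backwards from the 5′ end of the gene. The word CACC was chosen after these sequences had been seen. Copies are numbered within each type in genome order, and U3 copies 3, 4 and 5 had the same 75 bases as U3 copy 2.
U5 copy 1 (chr1:173433295-173433369, minus strand): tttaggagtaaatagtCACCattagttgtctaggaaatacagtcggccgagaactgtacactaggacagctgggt
U5 copy 2 (chr1:194571690-194571764, plus strand): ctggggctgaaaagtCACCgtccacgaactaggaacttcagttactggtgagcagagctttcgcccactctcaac
U5 copy 3 (chr4:116862472-116862546, plus strand): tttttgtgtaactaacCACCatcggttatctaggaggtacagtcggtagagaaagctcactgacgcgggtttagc
U5 copy 4 (chr4:116875058-116875132, plus strand): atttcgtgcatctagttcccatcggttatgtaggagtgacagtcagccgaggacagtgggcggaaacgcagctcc
U5 copy 5 (chr4:116883374-116883448, plus strand): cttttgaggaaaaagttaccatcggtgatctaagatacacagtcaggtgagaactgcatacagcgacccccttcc
U5 copy 6 (chr9:65044495-65044569, minus strand): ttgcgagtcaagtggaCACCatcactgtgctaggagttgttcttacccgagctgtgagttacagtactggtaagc
U5 copy 7 (chr9:65049649-65049723, minus strand): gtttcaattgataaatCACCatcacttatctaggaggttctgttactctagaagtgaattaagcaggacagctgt
U3 copy 1 (chr10:39978198-39978272, plus strand): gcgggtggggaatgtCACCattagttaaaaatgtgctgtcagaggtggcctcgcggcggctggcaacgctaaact
U3 copy 2 (chr11:87256664-87256738, plus strand): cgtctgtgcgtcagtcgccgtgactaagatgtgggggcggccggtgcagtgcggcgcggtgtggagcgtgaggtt
U4 copy 1 (chr5:115939393-115939467, plus strand): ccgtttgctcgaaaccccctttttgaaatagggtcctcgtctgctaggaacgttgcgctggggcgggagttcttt
U4 copy 2 (chr5:115940188-115940262, plus strand): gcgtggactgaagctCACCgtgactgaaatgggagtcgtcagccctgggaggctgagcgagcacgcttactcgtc
U11 copy 1 (chr4:131826129-131826203, minus strand): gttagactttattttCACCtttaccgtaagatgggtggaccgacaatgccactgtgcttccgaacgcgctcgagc
U12 copy 1 (chr15:82979999-82980073, plus strand): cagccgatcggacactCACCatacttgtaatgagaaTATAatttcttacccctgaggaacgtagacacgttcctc
U7 copy 1 (chr6:124691305-124691379, minus strand): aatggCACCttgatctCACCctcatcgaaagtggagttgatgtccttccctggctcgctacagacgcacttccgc
U6 copy 1 (chr10:79371865-79371939, plus strand): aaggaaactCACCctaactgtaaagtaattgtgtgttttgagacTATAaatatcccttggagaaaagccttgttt

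The same stretch is shown for the nearest relatives without a peak, chosen for a gene sequence like that of a copy with one. The U5 copy on chromosome 14 was 94.8% identical to the most similar U5 copy with a peak, the U3 copy on chromosome 19 was 96.3% identical, the U12 copy on chromosome 5 was 96.0% identical, and both U6 copies had the same sequence as U6 copy 1.
U5, chromosome 14 (chr14:96844099-96844173, plus strand): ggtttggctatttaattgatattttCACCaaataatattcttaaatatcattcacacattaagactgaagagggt
U3, chromosome 19 (chr19:4078513-4078587, minus strand): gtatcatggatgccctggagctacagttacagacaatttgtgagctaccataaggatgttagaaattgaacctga
U12, chromosome 5 (chr5:7177857-7177931, minus strand): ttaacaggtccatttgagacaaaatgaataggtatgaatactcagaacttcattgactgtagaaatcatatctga
U6, chromosome 12 (chr12:53704700-53704774, plus strand): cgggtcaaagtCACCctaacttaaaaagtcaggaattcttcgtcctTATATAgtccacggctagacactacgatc
U6, chromosome 10 (chr10:79448176-79448250, plus strand): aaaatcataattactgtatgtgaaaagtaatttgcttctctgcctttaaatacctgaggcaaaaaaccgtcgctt

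The gene of U3 copy 3 is given in full to show what the peaks in Tex14 lay over, since U3 copies 2, 4 and 5 have the same sequence.
U3 copy 3 (chr11:87262129-87262342, plus strand): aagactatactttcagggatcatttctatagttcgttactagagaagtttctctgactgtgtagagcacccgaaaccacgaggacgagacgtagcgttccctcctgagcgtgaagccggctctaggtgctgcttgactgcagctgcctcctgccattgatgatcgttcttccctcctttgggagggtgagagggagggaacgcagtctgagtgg

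U5 was the type with the largest share of its copies under a peak. Of its 10 copies, 7 had a peak in replicate 1 and 5 of these also in replicate 2. U3 had a peak at 5 of 47 copies, 4 of them in both replicates, and U4 at 2 of 43 copies, both in both replicates. U11 had 1 of 5 copies with a peak in both replicates. U12 had 1 of 6 and U7 had 1 of 116, each in replicate 1 only. U6 has by far the most copies, 936, and 1 of them had a peak, in replicate 1 only. When only peaks with a score of at least 100 were counted, the copies with a peak in both replicates fell from 12 to 4, of which 3 were U3 and 1 was U5, and no U6 copy remained.

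Over the 7 types, 1.55% of the copies had a peak in either replicate, against 1.85% of all 2975 snRNA and snoRNA genes and 0.893% of all annotated genes. The share for all 7 types is therefore near that of all snRNA and snoRNA genes, and that of U7, at 0.862%, is near that of all genes. The snRNA and snoRNA share is no separate background, since 18 of its 55 genes with a peak are the copies described here. U1 and U2 genes are another 19 and 9 of them, out of 206 U1 and 51 U2 copies. The share over all genes counts genes of any length. The share was 70% for U5, 10.6% for U3 and 4.65% for U4, and 0.107% for U6, while those of U11 and U12 rest on 1 copy each. By promoter class, 17 of 227 copies of the polymerase II types had a peak, or 7.49%, against 1 of 936 copies of U6, the polymerase III type. These are counts over different numbers of genes. No test was made of their difference, since copies of a type share sequence and are not independent. U6 also has many near-identical copies, 162 of those without a peak being at least 95% identical to U6 copy 1. Whether the mapping of reads to such copies lowered the U6 count was not tested.

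**Figure D1:**
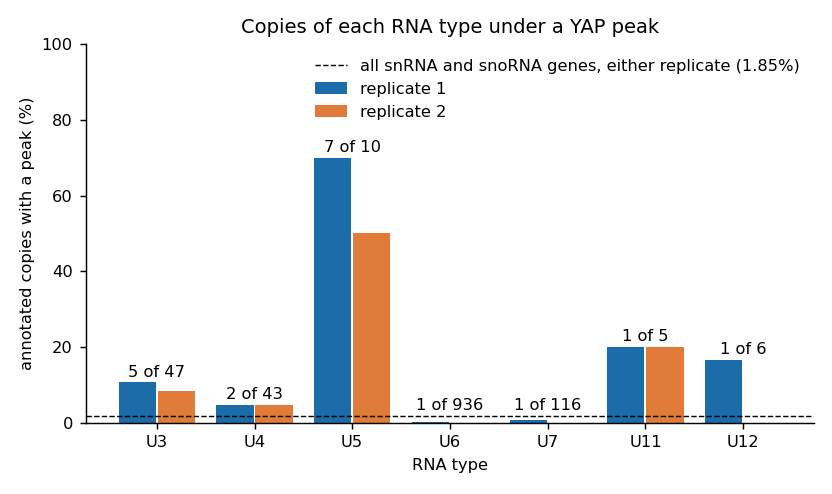
Share of the annotated copies of each RNA type that overlapped a YAP peak by at least 1 bp, in percent, for replicate 1 and replicate 2, with the number of copies with a peak in either replicate written above and the share for all snRNA and snoRNA genes as a dashed line. U5 stands at 7 of 10 copies and U6 at 1 of 936.

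All 18 copies with a peak were close to full length for their type. U3 copies ranged from 86 to 222 bp with a median of 90 bp, and the 5 with a peak were 212 to 214 bp long. U4 copies ranged from 80 to 171 bp and both with a peak were 141 bp. U5 copies were all 116 or 117 bp long, so length does not tell those with a peak from those without. Of the 1163 copies, 1028 were at least 80% as long as the longest copy of their type, and the 18 with a peak were among them.

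The U5 copies with a peak lay in 4 places. U5 copies 3, 4 and 5 stood within 20902 bp on chromosome 4, and U5 copies 6 and 7 lay 5154 bp apart on chromosome 9, while copies 1 and 2 were single genes on chromosome 1. U5 copy 7 at chr9:65049533-65049648, with Parp16 as the nearest coding gene and outside any other annotated gene, had the highest score of all copies described here. Its peak held 378 tags in replicate 1 and 93 in replicate 2, or 16.7 and 6.21 RPM, which are tags per 1000000 of the library's unique tags. The score, which is the -log10 of the peak's p-value multiplied by 10, was 975 in replicate 1, the second highest in that list, and 175 in replicate 2, at rank 22. The fold enrichment over the local background of the same library was 11.03 and 11.13, so the fold was alike in both while the RPM were not.

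The neighbouring U5 copy 6, at chr9:65044379-65044494, held 211 tags in replicate 1, or 9.30 RPM, with a score of 233, and had no peak in replicate 2. It was thus the weaker of this pair in replicate 1. On chromosome 4, near Kif2c, U5 copy 3 at chr4:116862547-116862662 held 328 tags in replicate 1 and 94 in replicate 2. U5 copy 4 at chr4:116875133-116875248 held 178 and 53. U5 copy 5 at chr4:116883449-116883564 held 240 and 34. The order of these 3 copies by tags thus differed between the replicates, with copy 5 above copy 4 in replicate 1 and below it in replicate 2. The peaks called in replicate 2 differed in length, 991 bp at copy 5 and 1528 bp at copy 4. Per kb of peak, copies 5 and 4 were alike there, with 34.3 and 34.7 tags, against 145 and 104 in replicate 1.

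U5 copy 2 at chr1:194571765-194571880, inside an intron of Hhat on the opposite strand, held 189 tags in replicate 1 and 58 in replicate 2. U5 copy 1 at chr1:173433179-173433294, over an exon of B930036N10Rik on the same strand and with the start of Refbp2 under the same peak, held 202 tags in replicate 1, or 8.90 RPM, and had no peak in replicate 2. Over the 7 U5 peaks the median was 211 tags in replicate 1, and over the 5 of replicate 2 it was 58. Both U5 copies without a peak in replicate 2 held more tags in replicate 1 than copies 2 and 4, which had one. They had the lowest scores of the 7 in replicate 1, 200.27 and 233 against 241 to 975, and the longest peaks, 2087 and 2018 bp against at most 1755 bp.

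U3 copies 2 to 5 lay within 28131 bp in introns of Tex14, a gene of the germ cell intercellular bridge, on chromosome 11. U3 copy 3 at chr11:87262129-87262342 had the highest score of them, 736 in replicate 1, the third of that list, and 171 in replicate 2. Its peak held 493 tags in replicate 1 and 100 in replicate 2, or 21.7 and 6.68 RPM. U3 copy 2 at chr11:87256739-87256952 held 482 and 67 tags. U3 copy 4 at chr11:87275788-87276001 held 448 and 64. By tags, copies 2 and 4 lay close to copy 3 in replicate 1 and below it in replicate 2. The replicate 2 peak was longer at copy 3, 1497 bp, than at copies 2 and 4, 1084 and 1044 bp. Per kb of peak, copies 3, 2 and 4 held 66.8, 61.8 and 61.3 tags in replicate 2. In replicate 1 they held 269, 245 and 220. U3 copy 5 at chr11:87284870-87285083 held 368 tags in replicate 1, or 16.2 RPM, with a score of 537, and had no peak in replicate 2. The 4 genes were identical in sequence, and it was the one with the fewest tags in replicate 1 that had no peak in replicate 2. By score it was not the lowest, since copy 4 had 515 in replicate 1. Its fold enrichment in replicate 1, 11.58, was above the 9.53 of copy 4.

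U3 copy 1 at chr10:39978273-39978484, with the start of Gtf3c6 under its replicate 1 peak, was a different sequence, 86.0% identical to the copies in Tex14. It held 389 tags in replicate 1 and 79 in replicate 2, or 17.1 and 5.28 RPM. Its peak of 3090 bp in replicate 1 was the longest over any of the copies, and with 141 its score in replicate 1 was the lowest of the U3 copies. In RPM it fell within the range of the U3 copies in Tex14 in both replicates. Per kb of peak it was below each of them. It held 126 tags per kb against 206 to 269 in replicate 1, and 48.1 against 61.3 to 66.8 in replicate 2.

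U4 copies 1 and 2, at chr5:115939468-115939608 and chr5:115940263-115940403 near Sirt4, lay 795 bp apart under a single peak, which cannot be divided between them. It held 634 tags in replicate 1, the seventh highest number of that list, and 122 in replicate 2, or 27.9 and 8.15 RPM. Its summit lay 164 bp after the 5′ end of copy 1 in replicate 1 and 212 bp after it in replicate 2, in both replicates before the start of copy 2. Its fold enrichment, 6.53 and 5.32, was lower than at the U3, U5 and U11 copies of the same replicate.

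U11 copy 1 at chr4:131825995-131826128, near Taf12, held 355 tags in replicate 1 and 85 in replicate 2, or 15.6 and 5.68 RPM. U12 copy 1 at chr15:82980074-82980224, with the start of Poldip3 under the same peak, held 175 tags in replicate 1, or 7.71 RPM, and had no peak in replicate 2. U11 and U12 RNA work together in one particle of the minor spliceosome, and of this pair the gene with more tags in replicate 1 was the one with a peak in both.

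U7 copy 1 at chr6:124691243-124691304 overlapped an exon of Grcc10 and an intron of Atn1 on the same strand, with the start of Grcc10 under its peak. It held 173 tags in replicate 1, or 7.62 RPM, and had no peak in replicate 2. U6 copy 1 at chr10:79371940-79372046, with the start of Med16 under its peak, was the weakest of the copies with a peak in replicate 1. Its peak held 36 tags in replicate 1, or 1.59 RPM, and its score was 57.25. Its fold enrichment was 4.76, and on each of these measures it was the lowest of the copies in replicate 1. The peaks at U5 copy 1, U6 copy 1, U7 copy 1 and U12 copy 1 also covered the start of a coding gene. A peak over the RNA gene cannot be told apart there from one over that start. The same holds for the replicate 1 peak at U3 copy 1, while its replicate 2 peak did not reach the start of Gtf3c6.

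**Figure D2:**
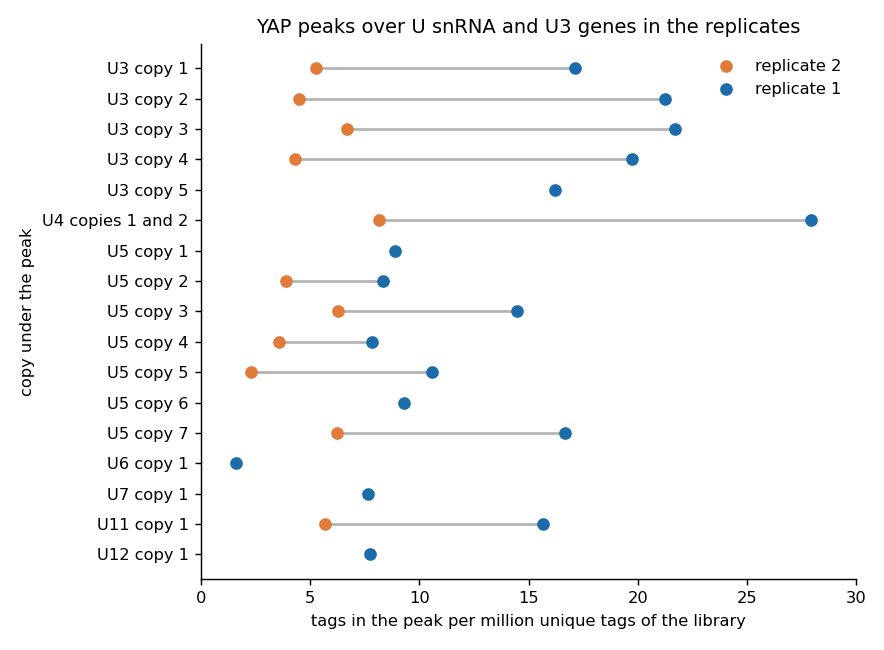
RPM on the horizontal axis in each of the 17 peaks over the copies, with replicate 1 in blue, replicate 2 in orange, a grey line joining them, and a blue point alone where replicate 2 had no peak. The values of replicate 1 run from 1.59 at U6 copy 1 to 27.9 at the shared peak of the U4 copies, and each of the 11 peaks with both values had the lower one in replicate 2.

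The peaks over these copies held more tags than most peaks of their list. The 17 peaks of replicate 1 had a median of 328 tags, from 36 to 634, against a median of 46 over all peaks of that list. The 11 peaks of replicate 2 had a median of 79 tags, from 34 to 122, against a median of 36 over all peaks of that list. Together they held 10.6% of the tags in peaks of replicate 1 and 5.06% in replicate 2. U1 and U2 peaks had medians of 327 and 332 tags in replicate 1 and of 94 and 70 in replicate 2, close to those of the copies described here. The peaks over the copies were also longer than the list, with a median of 1834 bp in replicate 1 against 1260 bp for all peaks of the list, and 1528 bp in replicate 2 against 1082.5 bp. In replicate 1 the U1 and U2 medians were 1911 and 1997 bp.

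In score, the median of the peaks over these copies was 379 in replicate 1 against 68.05 for all peaks of the list. In replicate 2 the medians were 88.2 and 71.8, so the distance between them was small there. Fold enrichment had medians of 11.03 against 8.97 in replicate 1 and 8.96 against 7.62 in replicate 2. Summed over the copies, the peaks held 232.6 RPM in replicate 1 (95% Wilson interval 226 to 239) and 56.7 in replicate 2 (53.0 to 60.7), intervals that cover counting error only.

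Each replicate 2 peak over one of these copies was also found in replicate 1, but not the reverse. Of the 17 in replicate 1, 11 had a counterpart in replicate 2, or 64.7%, where 14.8% of all 447 peaks did. The 11 in replicate 2 each had a counterpart in replicate 1, where 42.9% of all 154 peaks did. For comparison, 4 of 19 U1 peaks and 5 of 9 U2 peaks of replicate 1 were found in replicate 2, and all 4 U1 and all 5 U2 peaks of replicate 2 were found in replicate 1. The 6 peaks over these copies that were not found in replicate 2 held 36 to 368 tags with a median of 188.5, and the 11 that were found held 178 to 634 with a median of 378, so the ranges overlapped.

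Agreement on place did not carry over to amount. In all 11 shared peaks the RPM were lower in replicate 2, by a ratio of replicate 2 to replicate 1 of 0.211 to 0.465 with a median of 0.308, and the interval for counting error lay below 1 at each. The ratio was lowest at U3 copy 2, 0.211 (0.161 to 0.273), and highest at U5 copy 2, 0.465 (0.341 to 0.628). These sums move with the length called as a peak, which was 1971 and 1084 bp at U3 copy 2 and 1655 and 1653 bp at U5 copy 2. Per base of peak the ratio was 0.311 to 0.580 with a median of 0.377, below 1 as well, and the order of the copies changed. It was then lowest at the U4 peak and highest at U3 copy 1, with 0.383 at U3 copy 2.

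The same ratio had a median of 0.389 at the 4 shared U1 peaks and 0.291 at the 5 shared U2 peaks. At the 46 shared peaks over none of these 9 types it had a median of 0.898, from 0.219 to 1.52, and was below 1 at 27 of them. The cause of the lower amount in replicate 2 was not tested.

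**Figure D3:**
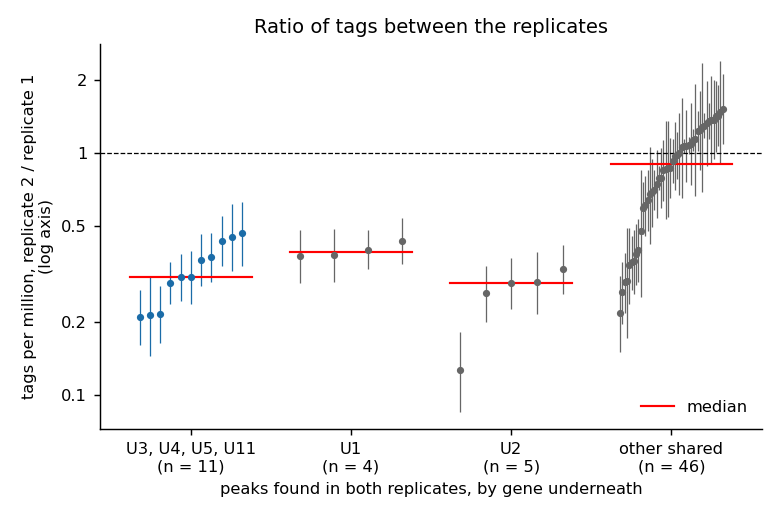
Ratio of RPM in replicate 2 to those in replicate 1 for peaks found in both, on a log axis, for the copies of U3, U4, U5 and U11, for U1, for U2 and for the other shared peaks, sorted by ratio, with 95% intervals for counting error and the median in red. The 11 peaks over the copies lie between 0.211 and 0.465, and the other 46 spread from 0.219 to 1.52.

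Within the peaks, the highest point lay after the 5′ end of the gene and not at the promoter. Leaving aside U4 copy 2, under the shared peak, the summit lay 43 to 268 bp after the 5′ end in replicate 1 with a median of 168 bp, and 99 to 374 bp after it in replicate 2 with a median of 242 bp. It was past the 3′ end of the RNA at 10 copies in each replicate. At U5 copy 7 the summit stood at 171 bp in replicate 1 and 242 bp in replicate 2, past the end of a gene of 116 bp. At U3 copy 2 it stood at 188 bp and 359 bp, and at U3 copy 4 at 168 bp and 306 bp. In replicate 2 the peaks at both of these U3 copies began inside the gene, so the promoter lay outside them.

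Reads that fit several places bear on where a peak can be seen. Stretches of 25 bases, the tag size in the peak lists' headers, were counted as unique when they occur once in the genome. They made up 37.9% to 97.4% of the peaks over these copies in replicate 1 with a median of 84.2%, against a median of 70.3% over the other peaks. Among those others, the U1 peaks had a median of 6.93% and the U2 peaks 70.4%. What this did to the share of U1 peaks found in both replicates was not tested. The peaks at U3 copies 2 to 5 had low shares, 49.5%, 54.6%, 59.7% and 37.9%, as did the peak at U5 copy 5 with 48.8%, and inside the 4 identical U3 genes no stretch was unique. At U5 copies between 13% and 62% of the gene was unique, at U12 copy 1 it was 11.8%, and at U6 copy 1 none was. The study tracked only a limited number of positions per read, and what this did to the counts at U6 was not tested. A copy with identical relatives can therefore share tags with them, and the part of this in the summit positions and in the tag numbers was not tested.

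**Figure D4:**
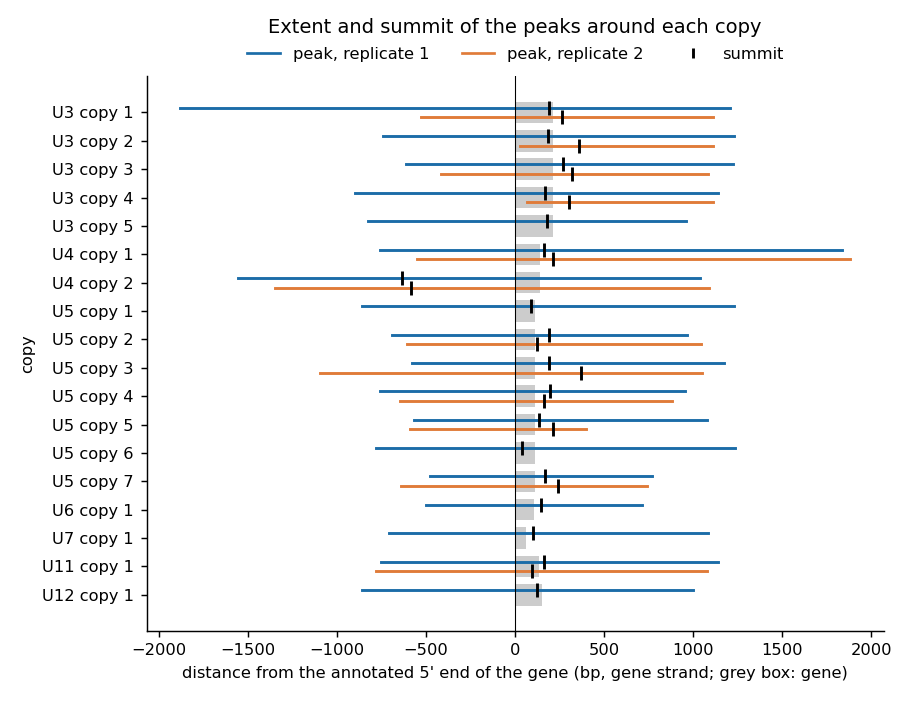
Extent of the peak over each copy in bp from the 5′ end of the gene in the direction of transcription, for replicate 1 and replicate 2, with the summit as a mark and the gene as a box. Summits lie after the 5′ end, 43 to 268 bp in replicate 1 and 99 to 374 bp in replicate 2, leaving aside U4 copy 2.

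Some of the copies with a peak had an octamer and a CACC word upstream, and 7 of the 18 had neither. The octamer ATGCAAAT, on either strand within 300 bp before the gene, was found at 9 of the 18 copies with a peak, or 50%, and at 39 of the 1145 without, or 3.41%. Within the polymerase II types it was found at 8 of 17 copies with a peak and at 14 of 210 without. Over all annotated genes it was found at 2.39%. It started between -230 and -179 in the copies with a peak, at U5 copies 1, 2, 6 and 7, U4 copy 2 and the copies of U6, U7, U11 and U12, and at none of the 5 U3 copies. U3 thus had peaks at 5 copies with no such word in this window, and the search says nothing of factors that read other letters.

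The word CACC, on the strand of the gene and starting at -60 or -59, was found at 10 of the 17 polymerase II copies with a peak and at none of the 210 without. U6 copy 1 had it at -66, and 5 of the 935 U6 copies without a peak had it at -60 or -59. Over all annotated genes it started at these positions in 0.974%. Both the octamer and CACC between -75 and -46 were present at 8 of the 17 polymerase II copies with a peak, at none of the 210 without, and at 0.303% of all annotated genes. The U5 copies on chromosome 4 and the U3 copies in Tex14 show that a peak was also found without the pair, since U5 copy 3 had CACC alone, and U5 copies 4 and 5 and U3 copies 2 to 5 had neither word, as had U4 copy 1. Only exact words were counted. Near matches were not, such as tacc at -59 in U5 copy 5 and cgcc at -60 in U3 copies 2 to 5. Since the word CACC was taken from these sequences, the counts describe them and test nothing.

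TATA between -40 and -15, the feature that sets the U6 promoter apart, was found at U6 copy 1, where it started at -31, and at U12 copy 1, at -39. It was found at 143 of the 1145 copies without a peak, or 12.5%, and at 6.66% of all annotated genes. A run of 4 T at the end of the gene or in the 20 bases after it, the stop signal of polymerase III, was present at 5 of 18 copies with a peak, at 608 of 1145 without, and at 20.4% of all annotated genes. The 5 were 4 U3 copies and 1 U5 copy, all of polymerase II types, and U6 copy 1 had no such run. The pair of words was also found without a peak, in U6. There, 3 U6 copies had the octamer, CACC and TATA and no peak, and 2 of these, on chromosome 12, had the same gene sequence as U6 copy 1.

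Gene sequence alone did not set the copies with a peak apart in U6, where identical genes stood with and without one. In U3, U5 and U12 the most similar copies without a peak were close in gene sequence but not identical. The U6 case rests on 1 peak of 36 tags in replicate 1. A U6 gene identical to U6 copy 1 stood at chr10:79448251-79448357, 75595 bp from the nearest peak of replicate 1, and 162 of the 935 U6 copies without a peak were at least 95% identical to it. Of the 42 U3 copies without a peak, 3 were at least 95% identical to one with a peak. For U5 the nearest was at 94.8% and for U12 at 96.0%. For U4, U7 and U11 the most similar copy without a peak was at 92.2%, 84.1% and 88.8%.

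**Figure D5:**
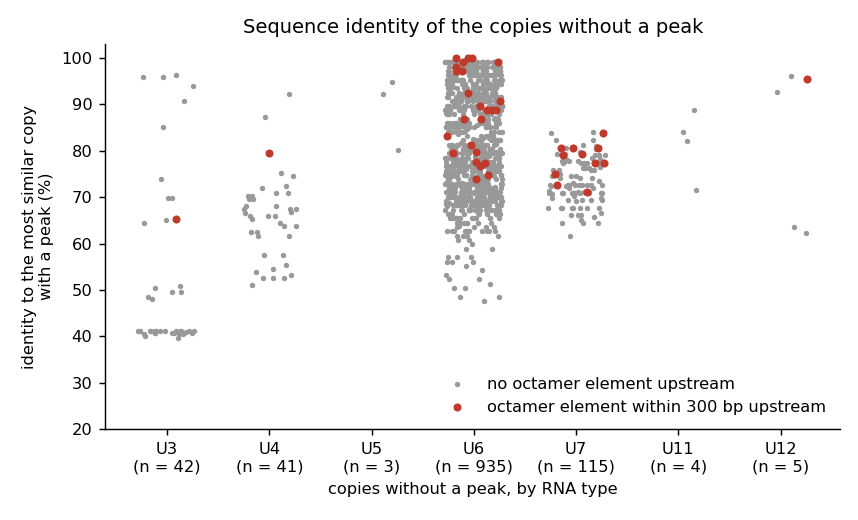
Sequence identity in percent of each copy without a peak to the most similar copy of its type with one, by RNA type, with copies that have the octamer ATGCAAAT within 300 bp upstream in red. U6 reaches 100% at 3 copies, while no U7 copy without a peak is above 84.1%.

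The copies with a peak were like each other in the gene and less alike over the 300 bp before it. The 21 pairs of U5 copies with a peak were 88.8% to 97.4% identical in the gene. Over the 300 bp before it they were 44.7% to 58.3% identical, and over the 300 bp after it 45% to 51.7%. The identity that unrelated sequence would reach in this way was not measured. Both U4 copies were 98.6% identical in the gene and 49.3% before it. U3 copies 2 to 5 were the exception, identical in the gene and 99.0% to 100% identical over 300 bp before it, while the 300 bp after it were 47.7% to 56.7% identical. Upstream sequence was thus shared among the U3 copies in Tex14 and mostly not among the U5 copies.

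The core letters of the TEAD motif, CATTCC on either strand within 100 bp of the summit, were found at none of the 17 peaks over these copies in replicate 1 and at 41 of 394 other peaks on assembled chromosomes, or 10.4%. In replicate 2 they were found at 2 of 11 peaks, those at U3 copy 1 and U5 copy 5, and at 18 of 133 other peaks, or 13.5%. The absence at the replicate 1 summits of U3 copy 1 and U5 copy 5, whose replicate 2 summits lay elsewhere in the same peaks, shows that the count depends on the summit used.

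Other noncoding RNA families set these counts in context. U1 had a peak in either replicate at 19 of 206 copies and U2 at 9 of 51, so many copies under a peak were not particular to U3 and U5. U4atac, the minor spliceosome's counterpart of U4, has 1 annotated copy, and it had a peak of 152 tags in replicate 1, or 6.70 RPM, and none in replicate 2. U6atac had none at 28 copies. The families that polymerase III transcribes from promoters like that of U6, among them 7SK with 331 copies, the RNA of RNase P with 18 and Y RNA with 24, had a peak at none of 403 copies in either replicate. U8, a polymerase II snoRNA, had none at 4 copies.

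Genes for the proteins that transcribe or process these RNAs, or bind them, were read from 6 lists covering snRNA transcription factors, Integrator, and the U3, U5 and U4/U6, U7, and U11/U12 particles. Of 56 annotated genes 2 had a peak within 5 kb, against 289 of 22367 coding genes. Both peaks were in replicate 1 only. The peak near Ints5, a subunit of the Integrator complex that cuts the 3′ ends of snRNAs, held 118 tags and lay over the snoRNA gene SNORA57, not over Ints5. The peak at Nop56, a core protein of the U3 snoRNP, held 77 tags and overlapped the end of Nop56 and Idh3b. The snRNA transcription factors, 10 genes, and the U5 and U4/U6 proteins, 11 genes, had none.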

How the data were processed

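Peaks of 2 YAP ChIP-Seq replicates were used. The authors mapped reads to mm9 with Bowtie, keeping reads with several positions, and called peaks in each replicate with MACS. Per the file headers the p-value cutoff was 1.00e-05, the tag size 25, the band width 300 and the control file none. The tags in a peak are a count that the authors deposited unscaled to library size. The study weighted each alignment by its number of positions, and the files do not show how this entered the count. The deposited score is the −log10 of the p-value multiplied by a constant, and the fold enrichment is the ratio to local background that the authors deposited. RPM are tags per 1000000 of the unique tags of the library, 22696949 and 14965024, whose size limits the counting precision.

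Genes came from GENCODE vM1 and sequences from NCBIM37. A peak was assigned to a gene by an overlap of at least 1 bp. Peaks on unplaced sequence, 36 and 10, could not be matched to genes. Identity was 100% less the edit distance over the longer sequence. Intervals, at 95%, are Wilson's for a share and exact binomial for a ratio. On random data the overlaps and the counts of short stretches matched a plain count, and the other steps were not checked in this way. Members and lists were chosen with earlier results of these data known. Named were copies with a peak in both replicates, the 2 with the most tags per type and replicate among those with a peak in 1, and the chromosome 9 U5 and chromosome 11 U3 loci. Computation used edlib 1.3.9.post1, pysam 0.24.0, scipy 1.17.1 and numpy 2.4.6 under Python 3.11.15, with matplotlib 3.10.9 for plots. Alternatives covered the score, fold, overlap, widening, summit, copy length, scaling and word length, and leaving out each replicate.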

Additional observations from a re-analysis of the deposited data

How the results depend on the processing

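Of 47 values under alternative settings, 36 stayed within 1.5 times the reported count or within the spread and 11 moved. The U6 values are among these numbers a second time as those of polymerase III. Leaving out replicate 2 could not change a count of copies, since each copy with a peak had one in replicate 1. The copies with a peak in both replicates fell from 12 to 4 at a score of at least 100, 3 of them U3 and 1 U5, and the peaks of replicate 1 found in replicate 2 fell from 11 to 4 with that score in both lists. The U6 count, which is also the polymerase III count, went from 1 to 0 at a score of at least 100, to 0 at a fold enrichment of at least 5 and to 4 with peaks widened by 500 bp. Without replicate 1 or without replicate 2 it ranged from 0 to 1, resting on replicate 1, and the copies with a peak ranged from 12 to 18. The median ratio of replicate 2 to replicate 1 was 0.308, and 0.406 when scaled to the tags in the other shared peaks. U3 had 4 to 5 copies with a peak and U5 had 5 to 7 under the settings tried. No paired analysis was possible because the result comes from no test and no input peak list was analysed. With 2 libraries, no input and peaks called above a cutoff, a copy without a peak in replicate 2, which has fewer tags, was not shown to lack YAP.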
